A study of Mus musculus with 8 samples.

Results

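The genes of mitochondrial and peroxisomal fatty acid oxidation were examined in epididymal white adipose tissue, a visceral fat pad attached to the epididymis, of mice after high-fat feeding. The 35 genes were chosen by name. Most belong to the carnitine shuttle, the mitochondrial oxidation spiral, its auxiliary enzymes, electron transfer to the respiratory chain, or the peroxisome. The others are Pdk4, a kinase of pyruvate dehydrogenase, and the acyl-CoA thioesterases Acot1 and Acot2. Of the 35 genes, 34 had a row in the deposited count table of 31854 rows. All 34 passed the filter on low counts that left 15667 rows for testing. Acadvl, the very long-chain acyl-CoA dehydrogenase, had no row under its symbol and was not analysed here. One group of 4 libraries came from mice with the S273A knock-in allele of PPAR-gamma, in which serine 273 is replaced by alanine (replicates 2, 3, 4 and 6). The other 4 libraries came from wild-type mice (WT, replicates 1, 2, 3 and 5). All 8 libraries shared the tissue and the high-fat diet; age, strain, litter and the length of the diet are not given in the labels. The labels do not say that each library is a separate animal, so each p-value reflects only how far these libraries scatter, and that scatter may be technical.

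Fatty acids enter mitochondria as carnitine esters, are shortened there by a repeated cycle of dehydrogenation, hydration, a second dehydrogenation and thiolysis, and pass electrons through the electron transfer flavoprotein to ubiquinone. Peroxisomes shorten very long-chain and branched fatty acids by a parallel set of enzymes, after import through ABC transporters, and return the products as carnitine esters. Many genes of both organelles are known targets of the PPAR family of nuclear receptors. PPAR-gamma, encoded by Pparg, is the family member that drives fat cell formation, and serine 273 is a phosphorylation site that kinases such as Cdk5 act on. The comparison asked whether the transcripts of this pathway differ in the depot when that site cannot be phosphorylated.

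PPARs bind DNA with RXR at a direct repeat with a spacer of a single base, here searched as AGGTCANAGGTCA on both strands of RefSeq promoters (GRCm38.p6, 250 bases before to 50 after the gene start). A total of 29 genes of the pathway matched a promoter entry by symbol, with 32 promoters. With at most 2 mismatches the motif was found in 3 of the 32 promoters, those of Echs1, Etfa and Slc25a20, and in 3.86% of all 32851 promoters; with at most 1 mismatch it was found in 0 of the 32 and in 0.554% of all. The 3 windows are shown because they are the closest matches among these genes, with the 13 matched bases in capitals, on the strand of each gene; the repeat in Etfa reads on the opposite strand. They lie at chr7:140116484-140116512 (minus strand, before the start of Echs1), chr9:55512300-55512328 (minus strand, before the start of Etfa) and chr9:108662134-108662162 (plus strand, just inside the transcribed part of Slc25a20). A match describes letters in the sequence and is not a measured binding site.
Echs1: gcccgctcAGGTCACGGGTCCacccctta
Etfa: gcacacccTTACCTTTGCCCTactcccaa
Slc25a20: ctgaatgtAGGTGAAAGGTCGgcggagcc

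Hadha and Hadhb, the subunits of the mitochondrial trifunctional protein, lie back to back on chromosome 5 (GRCm38). Hadha runs on the minus strand from 30118304 to 30155162 and Hadhb on the plus strand from 30155248 to 30184593. The 85 bases between the annotated genes, at chr5:30155163-30155247, are shown on the plus strand because the genes start at its ends and run in opposite directions. Capitals mark its 9 CpG dinucleotides. G and C made up 69.4% of the bases, and the closest match to the repeat had 4 mismatches in this stretch.
Hadha-Hadhb: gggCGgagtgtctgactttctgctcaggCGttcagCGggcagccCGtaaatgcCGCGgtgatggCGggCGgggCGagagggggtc

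Total counts ran from 14880239 to 18194889 per library, and none of the 28 pairs of libraries matched within counting noise (the lowest chi-square divided by its degrees of freedom was 5.72). Values are given as CPM, counts scaled to a common library total after TMM scaling, and levels of different genes are compared per kilobase of the row's feature length. The targeted gene, Pparg, had 165, 125, 141 and 129 CPM in S273A, against 134, 106, 138 and 137 CPM in WT (log2 fold change 0.12, SE 0.11); a codon change is not visible in gene counts, so this level does not check the labels. The 10 adipocyte markers, Adipoq and Plin1 among them, summed to 9950 to 12540 CPM in S273A and 8669 to 13332 CPM in WT. The 12 macrophage markers summed to 3276 to 3835 CPM in S273A and 3554 to 4217 CPM in WT. The 6 brown fat markers were low, summing to 8.72 to 12.3 CPM in S273A and 6.48 to 11.3 CPM in WT. Ucp1 was at 0 in WT replicate 2. No marker of epididymis or testis was among the tested rows (8 of 10 had a row, 3 of them without a count). Among these untested markers Adam7 had 20 counts in S273A replicate 2 and 0 in the other 7 libraries. Rnase10 had 1 to 8 counts in each library. Of 8 skeletal muscle markers 3 were tested, and they summed to 124 to 204 CPM in S273A and 124 to 172 CPM in WT. Among the untested muscle markers S273A replicate 6 stood apart for Myh4, Tnnt3 and Mylpf, but not for Tnni2. Myh4, a fast myosin heavy chain, had 237 counts there and 0 to 2 in the other 7 libraries. Tnnt3 had 40 counts against 2 to 10, and Mylpf 30 against 7 to 14. Tnni2 had 8 counts there and was highest in S273A replicate 2, at 14. Of the tested muscle markers Atp2a1 was highest in S273A replicate 6, Acta1 in S273A replicate 3 and Myl1 in S273A replicate 2. Without S273A replicate 6 the median log2 fold change of the 34 oxidation genes was 0.04, with 26 positive, beside 0.04 and 25 with all libraries. The whole tissue was sequenced, so fewer cells of a type and less RNA per cell cannot be told apart.

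None of the 34 genes passed the test between the genotypes. In edgeR's quasi-likelihood test 0 of 34 passed an adjusted p under 0.05, where the share over all 15667 tested rows was 0%, and the adjusted p was 0.9999 for each of the 34. At an unadjusted p under 0.05 there were also 0 of 34, against 1.46% of all tested rows (229 rows; 0.913% higher and 0.549% lower in S273A), and DESeq2 and limma-voom gave 0 of 34 at either threshold as well. Over all 15667 rows limma-voom called 0% at the adjusted and 1.4% at the unadjusted threshold. DESeq2, run without the filter, called 0.00441% and 0.952% of its 22694 rows, and among the 15667 rows 162 at the unadjusted threshold. The S273A and WT libraries overlapped for each of the 34 genes, where 1.19% of all tested rows showed no overlap (0.657% higher and 0.53% lower in S273A). Estimated log2 fold changes ran from -0.05 for Acaa1a to 0.28 for Ehhadh, with a median of 0.04 beside a median of 0.0015 for all tested rows. Estimates were positive for 25 of 34, beside 50.7% of all tested rows. Without WT replicate 2 the median was -0.03 and 10 of 34 were positive; leaving out any other single library gave 19 to 31 positive.

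**Figure D1:**
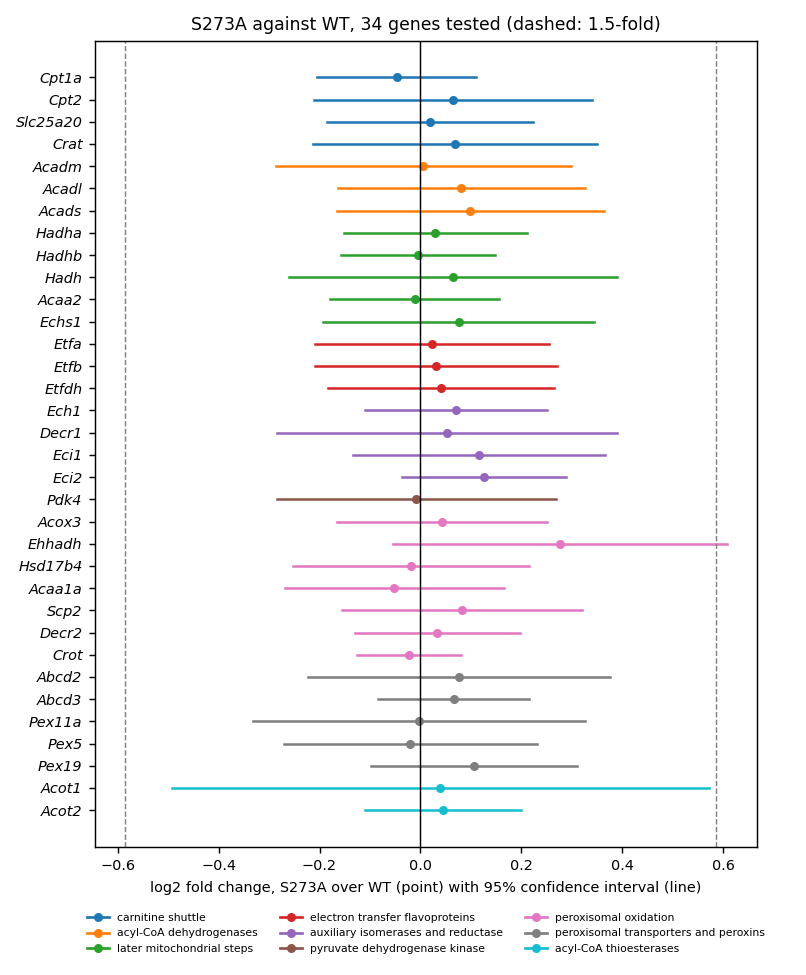
The log2 fold change of S273A over WT is plotted on the horizontal axis for each of the 34 genes, coloured by role, with 95% confidence intervals from edgeR (n = 4 libraries per genotype). Every interval includes 0, and that of Ehhadh is the one that extends past the dashed lines at 1.5-fold.

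For each gene taken singly, the intervals limit the size of a difference only as far as the scatter of these libraries measures it. For 33 of 34 genes the 95% confidence interval lay within 1.5-fold in either direction, as it did for 79.1% of all tested rows. The exception was Ehhadh, whose interval reached 0.61 on the log2 scale. The median interval reached 0.24 to either side of the estimate for the 34 genes and 0.24 for all tested rows.

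Of the 4 genes of the carnitine shuttle 0 passed. Cpt1a, the outer membrane carnitine palmitoyltransferase whose inhibition by malonyl-CoA controls entry of fatty acids, lies on chromosome 19 from 3322334 to 3385733 (plus strand). It stood at 255, 308, 299 and 297 CPM in S273A replicates 2, 3, 4 and 6, against 287, 320, 301 and 289 CPM in WT replicates 1, 2, 3 and 5. S273A replicate 2 was the lowest library and WT replicate 2 the highest, and the other 6 lay close together. This gave a log2 fold change of -0.05 with an SE of 0.07 (95% confidence interval -0.21 to 0.11; edgeR unadjusted p 0.518). Cpt1a had the highest level per length of the shuttle, at 67.4 ± 5.55 CPM per kb in S273A and 69.6 ± 3.51 CPM per kb in WT (SD, n = 4 each). Cpt2, its inner membrane partner, averaged 93.0 ± 7.22 CPM in S273A and 89.0 ± 16.3 CPM in WT. Slc25a20, the translocase that carries acylcarnitines across the inner membrane, averaged 64.5 ± 5.64 CPM in S273A and 63.7 ± 7.37 CPM in WT. Crat, which makes acetylcarnitine from acetyl-CoA, averaged 212 ± 21.4 CPM in S273A and 202 ± 35.4 CPM in WT. The WT spread of Cpt2 and Crat came with low values in WT replicate 2, at 68.1 and 157 CPM.

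The acyl-CoA dehydrogenases open each turn of the spiral, and each handles a range of chain lengths. Acadm, the medium-chain enzyme, was the highest of the 3 tested per length, at 117 ± 14.88 CPM per kb in S273A and 117 ± 19.4 CPM per kb in WT (SD, n = 4 each). Its library values were 241, 213, 284 and 228 CPM in S273A, against 249, 181, 264 and 267 CPM in WT. WT replicate 2 was the lowest and S273A replicate 4 the highest, and the 2 genotypes covered nearly the same range (log2 fold change 0.0057, SE 0.13, edgeR unadjusted p 0.966). Acads, the short-chain enzyme, stood at 121, 102, 123 and 109 CPM in S273A, against 99.9, 83.8, 125 and 116 CPM in WT. The log2 fold change was 0.10 (SE 0.12, edgeR unadjusted p 0.42), and 0.0011 without WT replicate 2. Acadl, the long-chain enzyme in the mouse, averaged 220 ± 20.3 CPM in S273A and 208 ± 29.7 CPM in WT.

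None of the 5 genes of the later steps passed, with estimates between -0.01 and 0.08. Acaa2, the mitochondrial 3-ketoacyl-CoA thiolase that releases acetyl-CoA, had the highest level per length of this group (77.8 ± 3.55 CPM per kb in S273A, 78.5 ± 8.08 CPM per kb in WT). It stood at 118, 110, 123 and 116 CPM in S273A, against 116, 103, 132 and 120 CPM in WT. The S273A values lay inside the range of the WT values. Echs1, the short-chain enoyl-CoA hydratase, stood at 113, 92.0, 116 and 90.8 CPM in S273A, against 93.5, 79.4, 108 and 110 CPM in WT (log2 fold change 0.08, SE 0.12, edgeR unadjusted p 0.543). Each genotype held 2 high and 2 low libraries for Echs1. Hadh, the short-chain 3-hydroxyacyl-CoA dehydrogenase, averaged 187 ± 21.8 CPM in S273A and 179 ± 35.8 CPM in WT.

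The levels of Hadha and Hadhb ran in parallel from library to library, and both genes were lowest in WT replicate 2, as were 28 of the 34. A link between these levels and the stretch printed above was not tested. The trifunctional protein that Hadha and Hadhb form carries out the last 3 steps of the spiral on long chains. Hadha averaged 273 ± 21.0 CPM in S273A and 267 ± 24.4 CPM in WT, and Hadhb 88.7 ± 4.75 CPM in S273A and 89.0 ± 7.23 CPM in WT (SD, n = 4 each). The ratio of Hadha to Hadhb within a library ranged from 2.97 to 3.17 in S273A and from 2.93 to 3.14 in WT, on the CPM scale without length. Per kilobase the 2 subunits stood at 58.5 and 42.7 CPM in S273A and at 57.4 and 42.9 CPM in WT. Of the distinct 36-base stretches in Hadhb transcripts, 22.3% also occur in GENCODE M21 transcripts of other genes, so part of its reads could be shared or dropped.

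The electron transfer flavoprotein collects electrons from the acyl-CoA dehydrogenases. Etfb, its beta subunit, stood at 79.5, 78.8, 91.3 and 90.02 CPM in S273A, against 77.0, 68.6, 97.8 and 89.3 CPM in WT. The S273A values again lay inside the WT range (log2 fold change 0.03, SE 0.11). Etfb had the highest level per length of the 3 genes, but an annotated gene on the same strand, Gm45233, shares much of its sequence: 58.3% of Etfb exon bases overlap another annotated gene. Etfdh, which passes the electrons on to ubiquinone, stood at 83.0, 72.9, 93.0 and 85.3 CPM in S273A, against 77.1, 68.9, 88.1 and 90.9 CPM in WT (log2 fold change 0.04, SE 0.10). Etfa, the alpha subunit, averaged 97.6 ± 11.3 CPM in S273A and 96.1 ± 11.5 CPM in WT.

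The auxiliary enzymes, which move or remove the double bonds of unsaturated fatty acids, had 4 positive estimates of 4, from 0.05 to 0.13, and none passed. Without WT replicate 2 the estimates were -0.09 for Decr1, 0.0077 for Ech1, 0.03 for Eci1 and 0.07 for Eci2. Eci2, an enoyl-CoA isomerase, had the second lowest p of the 34 genes. It stood at 69.2, 58.8, 65.1 and 65.6 CPM in S273A, against 61.3, 52.8, 63.8 and 59.2 CPM in WT. Of the S273A libraries 3 lay above all 4 WT libraries, and S273A replicate 3 lay below 3 of them. This gave a log2 fold change of 0.13 with an SE of 0.07 (95% confidence interval -0.04 to 0.29; edgeR unadjusted p 0.113). Without S273A replicate 3 the unadjusted p was 0.0394 and the estimate 0.18. Ech1, the dienoyl-CoA isomerase, had the highest level per length of all 34 genes, at 181 ± 14.1 CPM per kb in S273A and 172 ± 15.8 CPM per kb in WT. Its library values were 210, 188, 225 and 198 CPM in S273A, against 201, 169, 210 and 203 CPM in WT (log2 fold change 0.07, SE 0.08). Decr1, the mitochondrial dienoyl-CoA reductase, averaged 171 ± 19.8 CPM in S273A and 165 ± 34.5 CPM in WT, and Eci1, a further isomerase, 52.9 ± 6.26 CPM in S273A and 48.9 ± 6.48 CPM in WT.

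Pdk4, the kinase that switches off pyruvate dehydrogenase and so favours fatty acids as fuel, was the second highest gene per length. It stood at 387, 450, 524 and 454 CPM in S273A, against 559, 461, 401 and 403 CPM in WT. The ranges of the genotypes overlapped, with the highest library in WT (replicate 1) and the lowest in S273A (replicate 2). This gave a log2 fold change of -0.0080 with an SE of 0.12 (95% confidence interval -0.28 to 0.27; edgeR unadjusted p 0.95). The estimate moved between -0.08 without S273A replicate 4 and 0.11 without WT replicate 1.

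**Figure D2:**
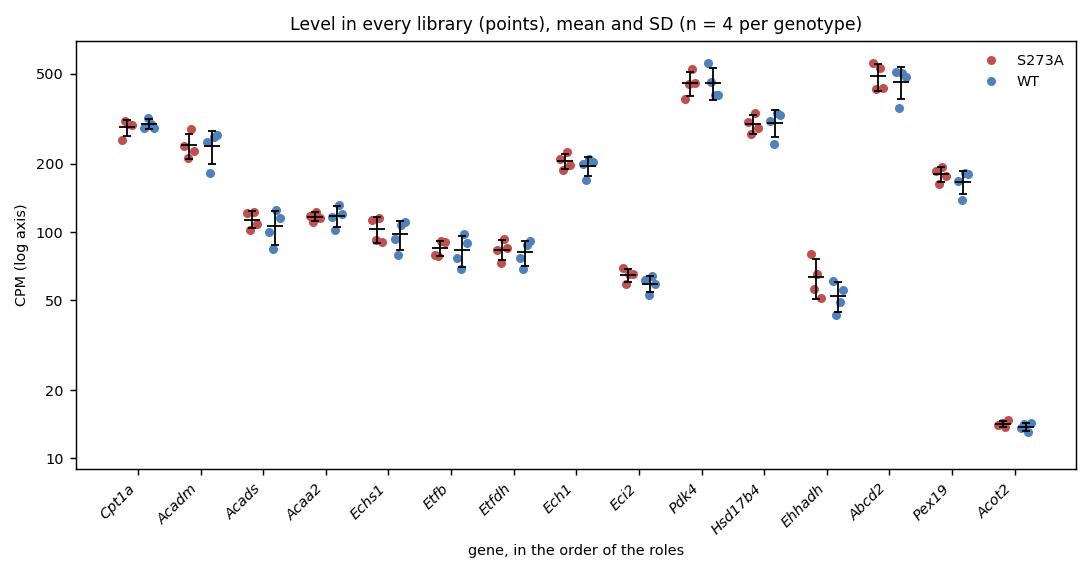
Each point is a library, on a log axis of CPM, for the gene with the lowest p and the gene with the highest level per length in each role group; black marks give mean and SD (n = 4 per genotype). The points of S273A and WT overlap for each gene, and Ehhadh has its highest point in S273A replicate 2 at 80.2 CPM.

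Among the peroxisomal enzymes, Ehhadh had the lowest p and the highest estimate of the 34 genes. Ehhadh encodes the L-bifunctional enzyme, which hydrates and oxidises the shortened chain, and lies on chromosome 16 from 21761287 to 21787807 (minus strand), with no exon base shared with another gene. It stood at 80.2, 56.0, 65.0 and 51.4 CPM in S273A, against 61.1, 43.1, 49.1 and 55.3 CPM in WT. S273A replicates 2 and 4 lay above all WT libraries, while S273A replicates 3 and 6 lay inside the WT range. This gave a log2 fold change of 0.28 with an SE of 0.15 (95% confidence interval -0.05 to 0.61; edgeR unadjusted p 0.0919). It was 0.14 without S273A replicate 2 and 0.36 without S273A replicate 6, where the unadjusted p was 0.0348; adjusted p-values over all alternatives stayed at 0.999 or above.

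Hsd17b4, the D-bifunctional enzyme and the partner of Ehhadh for very long and branched chains, was the highest peroxisomal gene per length (112 ± 10.5 CPM per kb in S273A, 113 ± 15.1 CPM per kb in WT). It stood at 306, 271, 337 and 288 CPM in S273A, against 309, 245, 334 and 328 CPM in WT, a log2 fold change of -0.02 (SE 0.10). The difference between the estimates of the 2 bifunctional enzymes was not tested. Acox3, an acyl-CoA oxidase of branched chains, averaged 129 ± 17.95 CPM in S273A and 125 ± 7.27 CPM in WT. Acaa1a, the peroxisomal thiolase, averaged 80.5 ± 5.41 CPM in S273A and 83.5 ± 11.4 CPM in WT. Its reads are partly ambiguous, since 15.5% of its distinct 36-base stretches also occur in its near copy Acaa1b. Scp2, which encodes a thiolase for branched chains and a sterol carrier protein, averaged 131 ± 13.9 CPM in S273A and 124 ± 16.4 CPM in WT, and 32.4% of its 36-base stretches also occur in an annotated pseudogene, Scp2-ps2. Decr2, the peroxisomal dienoyl-CoA reductase, and Crot, which makes carnitine esters for export, averaged 30.1 ± 1.37 and 62.6 ± 1.12 CPM in S273A and 29.4 ± 2.48 and 63.6 ± 2.12 CPM in WT.

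Crot was the steadiest of the 34 genes, with a coefficient of variation of 1.79% in S273A and 3.34% in WT. Its 95% confidence interval was the narrowest, from -0.13 to 0.08 on the log2 scale. Acot1, at the low end of the counts, varied the most, by 22.3% in S273A and 30.4% in WT; its raw counts ran from 38 to 82 per library.

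The peroxisomal transporters and peroxins held a range of levels. Abcd2, the transporter of very long-chain acyl-CoA that is prominent in fat tissue, was the highest per length (87.9 ± 12.1 CPM per kb in S273A, 83.4 ± 13.4 CPM per kb in WT). It stood at 560, 427, 528 and 432 CPM in S273A, against 509, 352, 503 and 484 CPM in WT, a log2 fold change of 0.08 (SE 0.13). WT replicate 2 lay well below every other library, and S273A replicates 3 and 6 were the next lowest. Pex19, the chaperone that delivers membrane proteins to peroxisomes, stood at 185, 163, 194 and 177 CPM in S273A, against 167, 139, 182 and 180 CPM in WT (log2 fold change 0.11, SE 0.09; edgeR unadjusted p 0.274). Without WT replicate 2 its estimate was 0.03. Abcd3, a second transporter, averaged 118 ± 7.82 CPM in S273A and 112.8 ± 7.600 CPM in WT. Pex5, the receptor that imports matrix enzymes, averaged 99.8 ± 6.95 CPM in S273A and 101 ± 17.3 CPM in WT. Pex11a, which takes part in peroxisome division and is known as a PPAR target, averaged 11.9 ± 1.78 CPM in S273A and 11.9 ± 2.02 CPM in WT.

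The acyl-CoA thioesterases had the lowest levels per length of the set. Acot2, the mitochondrial enzyme, stood at 14.0, 14.3, 13.8 and 14.8 CPM in S273A, against 13.6, 14.2, 13.1 and 14.3 CPM in WT (log2 fold change 0.05, SE 0.07). Acot1, its cytosolic neighbour on chromosome 12, averaged 3.45 ± 0.77 CPM in S273A and 3.35 ± 1.02 CPM in WT, and its 95% confidence interval ran from -0.49 to 0.57. Of the distinct 36-base stretches of Acot2, 28.2% also occur in Acot1 and 15.7% of those of Acot1 occur in Acot2. Reads as short as these could therefore be assigned to either gene, and both values are uncertain to that extent.

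**Figure D3:**
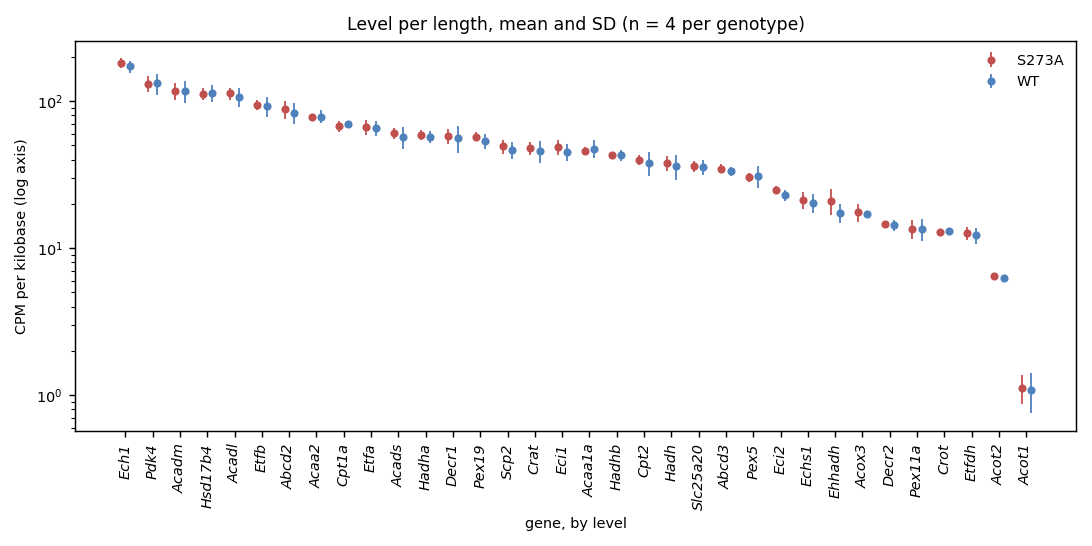
Mean level per kilobase (points) and SD (bars) in S273A and WT, on a log axis, with the 34 genes ordered by level (n = 4 per genotype). Levels run from 176 CPM per kb for Ech1 to 1.11 CPM per kb for Acot1 over all 8 libraries, and the SD bars of S273A and WT overlap for each gene.

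The order of the levels put Ech1, Pdk4, Acadm, Hsd17b4 and Acadl at the top, with means over the 8 libraries of 176, 132, 117, 113 and 110 CPM per kb. Within each genotype, Pdk4 and Acadm differed by less than the SD of either, and Acadm, Hsd17b4 and Acadl lay closer to each other than their lowest SD, 10.4 CPM per kb. Ech1 lay above Pdk4 by more than the SDs of both. Etfb, Abcd2 and Acaa2 followed at 93.0, 85.6 and 78.2 CPM per kb. At the low end stood Pex11a, Crot, Etfdh, Acot2 and Acot1, at 13.5, 12.9, 12.4, 6.37 and 1.11 CPM per kb. Feature lengths come from the deposited table, and a row whose length counts rarely used exons has a level per length that is too low.

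Most of the 34 genes were lowest in the same library. WT replicate 2 was the lowest of the 8 libraries for 28 of the 34 genes, where this held for 19.9% of all tested rows. In WT replicate 2 the genes stood at a median of 78.4% of the mean of the other 3 WT libraries, from 62.6% for Decr1 to 160% for Acot1. The exceptions were Cpt1a, Pdk4, Acox3, Crot, Acot1 and Acot2, each lowest in another library, and Cpt1a and Acot1 were highest in WT replicate 2. S273A replicate 4 was the highest library for 13 genes and WT replicate 3 for 9. This pattern was noticed after the values were seen.

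**Figure D4:**
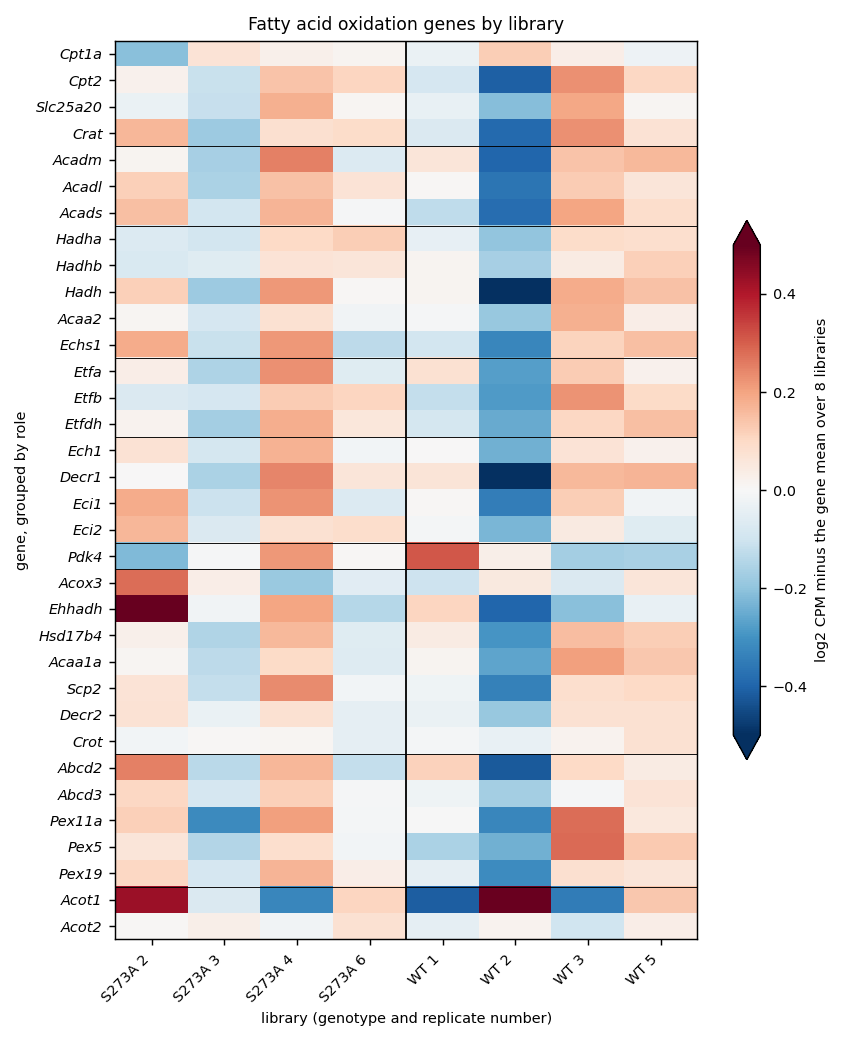
Colour gives log2 CPM minus the mean of the gene over the 8 libraries, for 34 genes (rows, grouped by role) in the S273A libraries (left) and the WT libraries (right). WT replicate 2 is blue for most genes, with Cpt1a, Pdk4, Acox3, Acot1 and Acot2 as exceptions, and no row separates the genotypes.

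The spread between WT libraries was wider than that between S273A libraries. The median coefficient of variation of the 34 genes was 8.99% in S273A and 13.3% in WT, and it was larger in WT for 31 of them. For the 12464 tested rows in the same range of CPM the medians were 8.21% in S273A and 8.26% in WT. Without WT replicate 2 the median over the 34 genes in WT was 5.21%, and it was larger in WT for 9.

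Summed over the 34 genes, the pathway took 5004, 4523, 5356 and 4824 CPM in S273A replicates 2, 3, 4 and 6, against 4931, 4088, 5150 and 5025 CPM in WT replicates 1, 2, 3 and 5. The adipocyte markers summed to 12168, 9950, 12540 and 11169 CPM in S273A, against 12075, 8669, 13332 and 12075 CPM in WT. Both sums were lowest in WT replicate 2 and next lowest in S273A replicate 3. The macrophage markers were highest in WT replicate 2, at 4217 CPM, and lowest in S273A replicate 2, at 3276 CPM; the estimate was below 0 for 10 of 12, with a median of -0.13, and without WT replicate 2 for 8 of 12, with a median of -0.07. The part that the mix of cells plays in the levels of the oxidation genes was not tested.

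**Figure D5:**
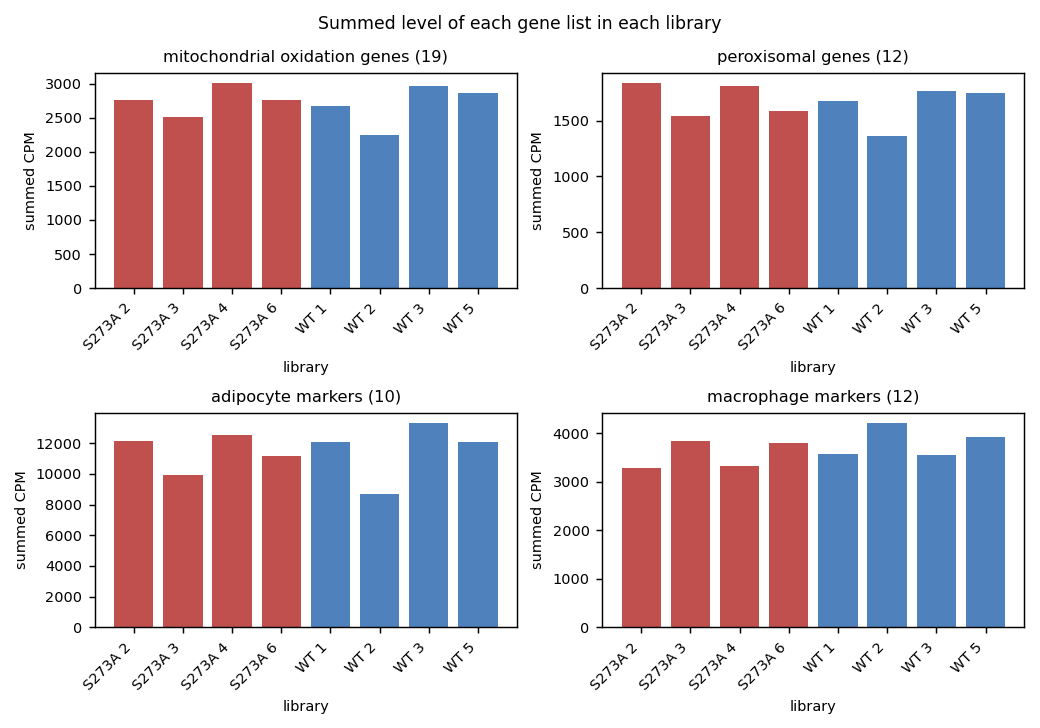
Bars give the summed CPM of 19 mitochondrial genes, 12 peroxisomal genes, 10 adipocyte markers and 12 macrophage markers in each library, S273A left and WT right. The first 3 sums are lowest in WT replicate 2, where the macrophage markers are highest at 4217 CPM.

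Per 100 CPM of adipocyte markers, the 34 genes summed to 43.1 ± 1.79 CPM in S273A and 42.1 ± 3.63 CPM in WT (SD, n = 4 each). On this scale WT replicate 2 was the highest library, at 47.2, and WT replicate 3 the lowest, at 38.6. The 19 mitochondrial genes, of the shuttle, spiral, electron transfer and auxiliary enzymes, summed to 2763 ± 199 CPM in S273A and 2689 ± 318 CPM in WT. The 12 peroxisomal genes summed to 1693 ± 151 CPM in S273A and 1636 ± 187 CPM in WT. Pdk4, Acot1 and Acot2 were in neither sum. Median log2 fold changes were 0.05 for the mitochondrial genes and 0.04 for the peroxisomal genes, with 16 of 19 and 7 of 12 positive. Without WT replicate 2 they were -0.04 and -0.03, with 4 of 19 and 4 of 12 positive. Mesothelial markers had 8 positive estimates of 8 (median 0.30), summing to 175 to 242 CPM in S273A and 122 to 197 CPM in WT. Each of these 8 was lowest in WT replicate 3 and highest in S273A replicate 4. The 6 tested of 8 red blood cell markers were positive as well (median 0.60, and 0.15 without S273A replicate 6; 259 to 499 CPM in S273A and 235 to 350 CPM in WT). Endothelial markers had 6 positive estimates of 6 (3 of 6 without WT replicate 2 or without S273A replicate 6; 717 to 857 CPM in S273A, 603 to 823 CPM in WT), adipose progenitor markers 2 of 6 (2322 to 2790 CPM in S273A, 2394 to 2843 CPM in WT) and lymphocyte markers 3 of 6 (45.2 to 131 CPM in S273A, 51.6 to 114 CPM in WT). These cell types were not tested for their part in the values above.

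Other genes of the pathway, listed by name, gave no call. Of 28 further mitochondrial genes 25 were tested, and 0 passed an adjusted p under 0.05 in either direction in edgeR, DESeq2 or limma-voom. At an unadjusted p under 0.05 in edgeR there was 1 of 25, beside 1.46% of all tested rows. This was Acacb, the carboxylase at the mitochondrial surface that makes the malonyl-CoA that inhibits Cpt1a. It averaged 217 ± 38.2 CPM in S273A and 170 ± 24.3 CPM in WT (log2 fold change 0.35, SE 0.14, edgeR unadjusted p 0.0296), with overlapping genotypes. Acacb was lowest in WT replicate 2, at 135 CPM. Without that library no estimate of the 25, that of Acacb included, was above 0.26. Next came Acad10, an acyl-CoA dehydrogenase family member, at 16.9 ± 2.34 CPM in S273A and 14.7 ± 0.80 CPM in WT (0.21, SE 0.10), and the acyl-CoA synthetases Acsl3 (0.09, SE 0.07) and Acsl5 (-0.06, SE 0.05). The median over the 25 was 0.05, with 15 positive and 10 negative estimates; without WT replicate 2 it was -0.0034, with 12 positive.

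Of 39 further peroxisomal genes 33 were tested, and 0 passed at an adjusted or an unadjusted p under 0.05 in edgeR, DESeq2 or limma-voom. Their median log2 fold change was 0.02, with 24 positive and 9 negative; without WT replicate 2 it was -0.02, with 9 positive and 24 negative. The lowest p-values belonged to Pex26, which anchors the import machinery (19.8 ± 1.62 CPM in S273A, 17.4 ± 1.44 CPM in WT; 0.19, SE 0.09), and Pex11g, of the peroxisome division family (9.26 ± 0.50 CPM in S273A, 8.17 ± 0.67 CPM in WT; 0.18, SE 0.10). Acbd5, an acyl-CoA binding protein of the peroxisomal membrane, had -0.08 (SE 0.05), and Phyh, which starts the breakdown of phytanic acid, 0.11 (SE 0.10).

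The 21 regulators of oxidation were all tested and 0 passed at an adjusted or an unadjusted p under 0.05 in edgeR, DESeq2 or limma-voom (median 0.01, with 11 positive and 10 negative; -0.0012 and 10 positive without WT replicate 2). Pdk1, a relative of Pdk4, averaged 69.4 ± 5.82 CPM in S273A and 77.3 ± 6.97 CPM in WT (log2 fold change -0.16, SE 0.08). Pprc1, a coactivator related to PGC-1, averaged 62.1 ± 2.83 CPM in S273A and 57.8 ± 2.95 CPM in WT (0.10, SE 0.06). Ncor1, a corepressor of nuclear receptors, had 0.08 (SE 0.06), and Pdk2, a further pyruvate dehydrogenase kinase, 0.09 (SE 0.08).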

How the data were processed

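Total RNA of the fat pad had its ribosomal RNA removed, and libraries that do not mark strand were sequenced as paired 36-base reads, per the labels' protocols. The authors deposited raw counts of reads for each gene in 1 table, whole numbers that are not normalised, beside a column of feature lengths, per the file headers. The submitters' processing notes name the build mm10 and, without roles, edgeR 3.3.0, featureCounts 1.5.2, HISAT2 2.0.5 and Picard 2.9.2. The treatment of duplicates and of reads at several places is not given in the sources used here. Without strand, reads of overlapping genes cannot be told apart: 9 of the 35 genes have exon bases under a gene on the other strand in GENCODE M21.

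Counts were analysed with edgeR 4.0.16 (R 4.3.3): filterByExpr at its defaults (count of 10, total of 15), TMM scaling, glmQLFit with the robust option and glmQLFTest on genotype, with no covariate. P-values were adjusted by Benjamini-Hochberg over all 15667 tested rows. Standard errors and 95% confidence intervals come from the F statistic. Alternatives were RLE scaling, DESeq2 1.42.0 without the filter, limma-voom (limma 3.58.1), no filter, the replicate number as a block, and leaving out each library. The test was checked on simulated counts, drawn independently for each row. The changes put into these counts were larger than the estimate of any of the 34 genes. Differences as small as those estimates were therefore not checked. The simulated libraries held no shift shared by many genes, such as that seen in WT replicate 2. Symbols were matched exactly, and no symbol of the 34 stood on more than 1 row. The labels' replicate numbers 2 and 3 occur in both genotypes, with nothing that marks them as pairs. The genes, gene lists and tests were chosen with earlier results of these data known. For each role, library values are given for the gene with the lowest p and the gene with the highest level per length, and each further list names the 4 genes with the lowest p.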

Additional observations from a re-analysis of the deposited data

Results flagged for a closer look

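In a group of 4 libraries, a single library was marked where its gap to the nearest of the others took up nearly the whole range of the group. Over 68 groups (34 genes in 2 genotypes) 2 were marked, and chance marks about 1 in 20. Both are low values of WT replicate 2. Decr1, the mitochondrial dienoyl-CoA reductase, stood at 114 CPM there, with the other WT libraries between 173 and 187 CPM. Abcd2, the peroxisomal transporter, stood at 352 CPM there, with the other WT libraries between 484 and 509 CPM. Without WT replicate 2 the log2 fold change of S273A over WT was -0.09 for Decr1 and -0.03 for Abcd2, beside 0.05 and 0.08 with all 8 libraries.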

How the results depend on the processing

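The call of 0 among the 34 genes held under RLE scaling, DESeq2, limma-voom, no filter on low counts, the replicate number as a block, and each of the 8 fits without a library; the lowest adjusted p of any of the 34 over these was 0.999. Over all rows, DESeq2 called 1 gene, and leaving out a library gave 0 to 1, with the 1 call made without S273A replicate 4. Both calls were Gdf3, which is not in the pathway and is named after its values were seen (log2 fold change -2.14 in DESeq2, -2.64 without that library, and -2.14 with an adjusted p of 0.646 in edgeR on all libraries). Without a library, 0 to 1 of the 34 genes had an unadjusted p under 0.05 (Eci2 without S273A replicate 3, Ehhadh without S273A replicate 6 at 0.0348 or WT replicate 1 at 0.0469), and 10 to 31 estimates were positive. The median ran from -0.03 to 0.09. Of 442 estimates under the 13 other settings 386 kept their sign and 56 turned, in 26 genes whose estimates with all libraries lay between -0.05 and 0.08. Log2 fold changes that turned in a fit without a library ranged as follows: Cpt1a -0.071 to 0.0089, Cpt2 -0.045 to 0.16, Slc25a20 -0.045 to 0.094, Crat -0.036 to 0.17, Acadm -0.11 to 0.069, Acadl -0.016 to 0.15, Hadha -0.028 to 0.072, Hadhb -0.058 to 0.034, Hadh -0.069 to 0.14, Acaa2 -0.072 to 0.052, Echs1 -0.012 to 0.14, Etfa -0.058 to 0.084, Etfb -0.051 to 0.12, Etfdh -0.032 to 0.11, Decr1 -0.089 to 0.12, Pdk4 -0.084 to 0.11, Acox3 -0.053 to 0.11, Hsd17b4 -0.11 to 0.036, Acaa1a -0.14 to 0.013, Scp2 -0.0068 to 0.14, Decr2 -0.021 to 0.067, Abcd2 -0.035 to 0.14, Pex11a -0.10 to 0.10, Pex5 -0.097 to 0.083, Acot1 -0.11 to 0.24. limma-voom turned Pex11a to 0.0070. The cause was not tested. Replicate numbers 2 and 3 occur in both genotypes, but nothing marks them as pairs: the deviations of same-numbered libraries correlated at -0.08 and -0.22, while S273A replicate 3 correlated best with WT replicate 2 (0.47). The block takes genotype from the 4 libraries that share a number. With the replicate block the median was 0.06, 23 estimates were positive, 0 of 34 were called, Ehhadh had an estimate of 0.54 with an unadjusted p of 0.0522, and 94 rows had an unadjusted p under 0.05, against 229 without it. The block turned Slc25a20 to -0.065, Hadha to -0.026, Etfb to -0.050, Etfdh to -0.0028, Hsd17b4 to 0.0059 and Crot to 0.0047. Depth limits Acot1 most, with 38 to 82 counts per library.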
